A study of Homo sapiens with 18 samples.

Results

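The genes described here are 10 that build and load the machinery of DNA replication. MCM2, MCM3, MCM4, MCM5, MCM6 and MCM7 form the replicative helicase, CDC6 and CDT1 load it onto DNA, MCM10 acts when it is switched on, and PCNA is the sliding clamp of the replication fork. They were chosen by gene symbol, with earlier results of these data known. Each matched 1 Ensembl identifier, and they are 10 of the 57820 genes in the deposited table and 10 of the 15307 genes that had enough counts to be tested. The cells were MDA-MB-231, a human breast cancer line of the triple-negative type labelled as wild type, and RNA was taken 72 hours after lipofection with siRNA. The study set out to find genes that change when mTORC1, the kinase complex that matches growth to nutrients, is repressed by silencing RagC (gene RRAGC), a GTPase that tethers it to lysosomes. The groups were siRagC1 and siRagC2, which are 2 siRNAs against RagC, and the control siRNA siCtrl, with 6 libraries each and 18 in all. All of the cells, controls included, were lipofected and grown in medium with serum and glutamine, and all came from this 1 line.

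In G1, the origin recognition complex, CDC6 and CDT1 place the MCM2 to MCM7 ring around DNA at replication origins, which licenses each origin to fire once in the coming S phase. The ring then becomes the core of the active helicase with the help of MCM10 and other firing factors, and PCNA, loaded behind it, holds the polymerases on DNA and recruits repair and chromatin proteins. The genes for these proteins are well-known targets of the E2F transcription factors, are transcribed mostly around the G1 to S transition, and their summed transcript level is commonly read as a sign of proliferation.

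Stretches of the promoters are shown with the core words of the E2F site, since the genes are known E2F targets and are described here together. RefSeq promoter windows (build GRCh38.p14, 300 bases from 250 before to 50 after the start) were searched by symbol for 9 of the 10 genes, MCM4 not being analysed here, and 8 matched, with 11 windows in all; the entry for MCM5 was not matched. The word TTCCCGC was searched on both strands, as were its variants TTCGCGC and also TTGCCGC along with TTGGCGC. Matches that overlap are counted separately. At least 1 of them stood in a window of 7 of the 8 genes (all but MCM10), while 12.97% of the 35116 promoters in the table held one and 1.771% held at least 2. Here and below the shares are per promoter window, while a gene counts if any of its windows held a match. MCM7 had 3 windows and PCNA 2, and the first window of each held a match. In the stretches, each written 5′ to 3′ on the gene's own strand, the capitals mark these words; GCGGGAA is TTCCCGC read on the other strand.

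MCM2 (chr3:127598391-127598435, plus strand): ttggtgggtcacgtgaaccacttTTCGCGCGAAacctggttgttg
MCM3 (chr6:52284723-52284782, minus strand): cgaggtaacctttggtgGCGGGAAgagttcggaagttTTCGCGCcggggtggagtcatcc
MCM6 (chr2:135876514-135876603, minus strand): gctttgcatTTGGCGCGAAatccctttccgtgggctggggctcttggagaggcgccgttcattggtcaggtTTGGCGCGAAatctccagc
MCM7 (chr7:100101378-100101422, minus strand): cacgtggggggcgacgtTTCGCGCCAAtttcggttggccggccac
MCM10 (chr10:13161498-13161572, plus strand): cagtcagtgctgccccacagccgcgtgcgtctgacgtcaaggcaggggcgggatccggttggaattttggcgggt
CDC6 (chr17:40287819-40287903, plus strand): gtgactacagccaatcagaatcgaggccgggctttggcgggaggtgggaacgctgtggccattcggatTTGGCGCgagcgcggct
CDT1 (chr16:88803739-88803788, plus strand): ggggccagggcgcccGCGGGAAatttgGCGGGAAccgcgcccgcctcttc
PCNA (chr20:5126633-5126712, minus strand): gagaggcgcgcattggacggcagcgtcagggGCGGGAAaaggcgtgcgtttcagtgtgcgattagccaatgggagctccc
MCM6 held 4 words as 2 overlapping pairs, at bases -151 to -142 and -89 to -80 from its start, and the capitals in MCM2 (bases 4 to 13) and MCM7 (bases -8 to 2) are likewise 2 overlapping words each. CDT1 had 2 separate words within 50 bases of its start, MCM3 had 3 in its whole window, and CDC6 and PCNA had 1 each. The MCM10 stretch holds none of these words and is shown beside the others because MCM10 had the largest change of the 10. Other forms of the E2F site were not searched for, so a stretch without these words may still hold one. CCAAT, the core of NF-Y sites, was found in 6 of the 8 genes (all but MCM2 and CDT1), against 34.61% of promoters, and TTTGAA, the element of many G2 and mitosis genes, in 0 of the 8, against 15.16%. These matches describe letters in the windows only; the count table was made on GRCh37/hg19 and carries no coordinates.

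The libraries held 22940834 to 55409996 counts with siRagC1, 14829597 to 71622456 with siRagC2 and 18953348 to 44261701 with siCtrl, and the 10 genes together took 0.0842% to 0.115% of them. RRAGC fell with both siRNAs: its lowest, median and highest CPM (counts per 1000000 counts of the library, sizes scaled by TMM) were 12.3, 24.3 and 31.9 with siRagC1 and 19.3, 26.1 and 40.8 with siRagC2, against 60.6, 61.5 and 67.9 with siCtrl, with no overlap. Its log2 fold change was -1.43 ± 0.17 (SE) with siRagC1 and -1.20 ± 0.17 with siRagC2 (edgeR, adjusted p = 0.000373 and 0.00135). The line's mesenchymal markers were abundant in all 18 libraries (VIM 3790 to 5382 CPM), and its estrogen and progesterone receptor genes were at most 0.164 CPM. The remaining receptor gene of the triple-negative label, ERBB2, was expressed at 80.1 to 123 CPM, and the epithelial marker EPCAM at 13.2 to 19.3 CPM. Of the markers of other cells PTPRC reached 0.774 CPM, DCN 0.182 CPM and COL1A1 72.8 CPM. By their codes the libraries belong to 2 series. D1103 holds replicates 1 and 2 of every group and D1221 holds replicates 3 to 6, and the labels leave the meaning of the codes unstated. The titles label the replicates as BioRep, which names them biological, but whether they were separate cultures is unstated. The spread behind each p-value is that between these libraries, and how much of it is technical is not known.

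All 10 genes were well expressed. Their lowest count in any library was 389 (CDT1 with siCtrl) and their highest 13616 (MCM3 with siRagC2). On the scale of CPM per kilobase of exon, which allows genes to be compared, PCNA was highest with 86.7 ± 5.66 with siRagC1, 85.5 ± 7.93 with siRagC2 and 101 ± 6.67 with siCtrl (mean ± SD, n = 6 each). MCM3 (50.8 ± 6.24, 51.7 ± 7.20 and 60.1 ± 3.96 in the same order of groups) and MCM7 (39.8 ± 4.51, 41.5 ± 4.30 and 44.2 ± 2.76) followed. The other ring subunits stood lower: in siCtrl libraries MCM4 had 22.7 ± 1.30, MCM6 19.9 ± 1.86, MCM2 16.2 ± 1.53 and MCM5 11.2 ± 1.34 CPM per kilobase. CDC6, with 13.6 ± 1.34 in siCtrl libraries, lay between MCM2 and MCM5, and CDT1 with 8.63 ± 1.87 and MCM10 with 8.40 ± 0.639 were lowest. In this order the neighbours MCM4 and MCM6, MCM2 and CDC6, CDC6 and MCM5, MCM5 and CDT1, and CDT1 and MCM10 did not differ beyond their SDs in siCtrl libraries. Lengths are unions of exons in an annotation of a later genome build than the authors', so the order rests on that choice. MCM7 shares 392 exon bases with AP4M1 on the other strand and MCM2 shares 45 with TPRA1, and the labels do not say whether counting used the strand.

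**Figure D1:**
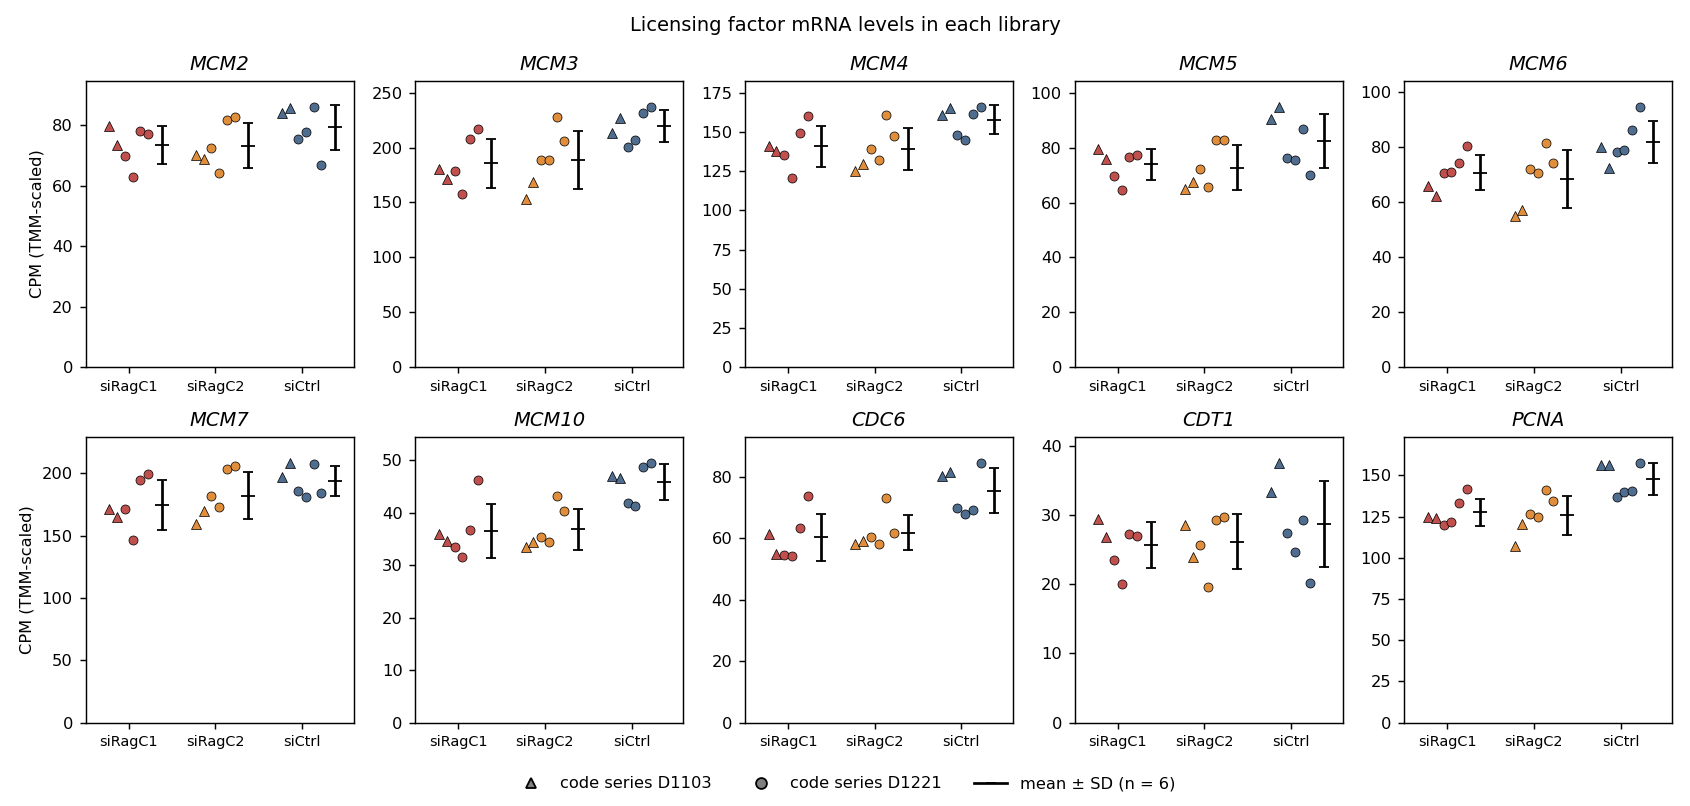
Level of each licensing factor in every library, in CPM with TMM-scaled library sizes (vertical axis, from 0), for siRagC1, siRagC2 and siCtrl; triangles are series D1103, circles D1221, and the bar beside each group is the mean ± SD of its 6 libraries. MCM10 averaged 36.4 ± 5.16 CPM with siRagC1, 36.8 ± 3.93 CPM with siRagC2 and 45.8 ± 3.48 CPM with siCtrl, and in all 10 panels the groups overlap (over all tested genes, 0.314% lay below siCtrl without overlap with siRagC1 and 0.542% with siRagC2).

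The first question was whether silencing RagC changed the transcripts of the licensing factors. With siRagC1, CDC6 and MCM10 fell, and with siRagC2, CDC6, MCM10, MCM6 and PCNA fell. These genes fell by 15.2% to 20.5% of the siCtrl level. The remaining genes missed the threshold, an edgeR adjusted p under 0.05 over all 15307 genes, and none of the 10 was higher, against 1.41% of all tested genes with siRagC1 and 1.87% with siRagC2. Thus 2 of the 10 passed as lower with siRagC1, against 0.627% of all tested genes, and 4 of the 10 with siRagC2, against 1.36%. All 10 fold changes were negative with each siRNA, with medians of -0.19 with siRagC1 and -0.21 with siRagC2 on the log2 scale. Over all tested genes the medians were 0.0051 and 0.0047, and 48.3% were negative in each comparison. At an unadjusted p under 0.05 there were 7 of the 10 with each siRNA, against 17.1% of all genes with siRagC1 and 18.5% with siRagC2. The 2 comparisons use the same 6 siCtrl libraries, so they are not independent of each other. Since the 10 were chosen with earlier results of these data known, the shares set beside all tested genes are a description. In RNA from whole cultures, fewer cells in S phase and less of these transcripts per cell cannot be told apart.

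**Figure D2:**
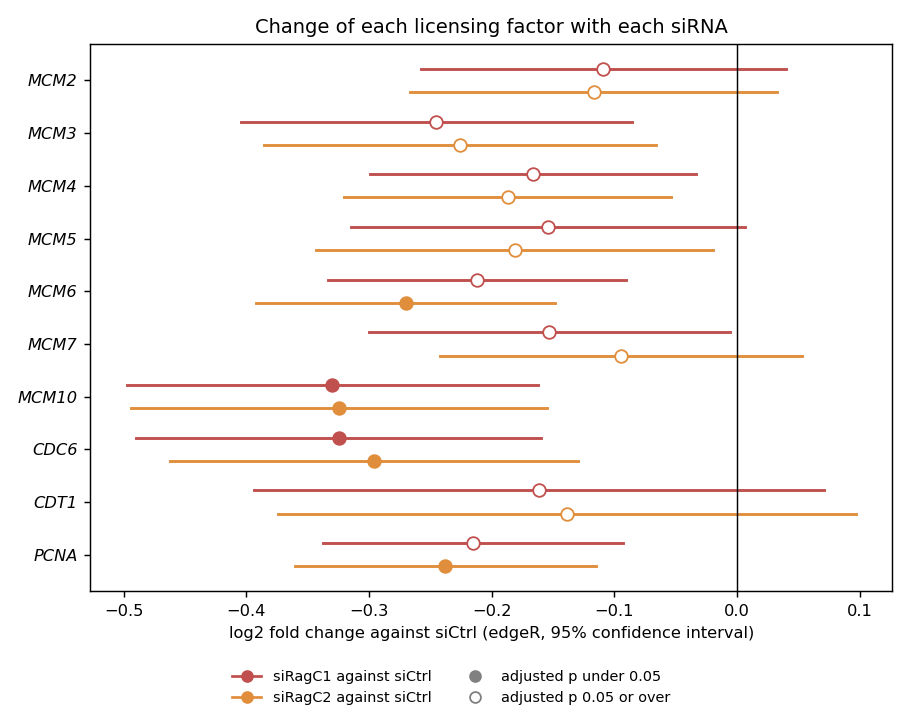
Log2 fold change of each licensing factor against siCtrl (horizontal axis) with its 95% confidence interval from edgeR, for siRagC1 and siRagC2; filled points have an adjusted p under 0.05. All 20 points lie below 0, from -0.33 for MCM10 with siRagC1 to -0.095 for MCM7 with siRagC2, and 6 are filled.

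Of the loaders, CDC6 (ENSG00000094804), the ATPase that joins the origin recognition complex, fell with both siRNAs. Its lowest, median and highest level was 54.3, 58.1 and 73.8 CPM with siRagC1 and 58.0, 59.8 and 73.0 CPM with siRagC2, against 67.7, 75.0 and 84.6 CPM with siCtrl. The highest siRagC1 and siRagC2 libraries, replicates 6 and 5, overlapped the lower controls, while the other 5 libraries of each siRNA lay below all controls. CDC6 fell by 20.2% with siRagC1 (log2 fold change -0.32 ± 0.079, adjusted p = 0.0364) and fell by 18.6% with siRagC2 (-0.30 ± 0.080, adjusted p = 0.0441). CDT1 (ENSG00000167513), the partner that brings the ring to the loaded origin and is destroyed once S phase begins, had 20.1, 26.9 and 29.4 CPM with siRagC1 and 19.6, 27.2 and 29.8 CPM with siRagC2, against 20.1, 28.4 and 37.6 CPM with siCtrl. The controls ran from replicate 6 at the low end to replicate 2 at the high end; replicates 1 and 2, both of D1103, lay above every silenced library, and the other 4 lay within the range of the silenced libraries. Its log2 fold changes were -0.16 ± 0.11 and -0.14 ± 0.11 (adjusted p = 0.487 and 0.579), and the 95% intervals ran from -0.39 to 0.071 and from -0.37 to 0.097. The CDC6 call with siRagC1 was lost when any 1 of siRagC1 replicates 1 to 5 or siCtrl replicates 1, 2 and 6 was left out (adjusted p 0.0566 to 0.119). With siRagC2 it was lost without any 1 of siRagC2 replicates 1 to 4 or 6, siCtrl replicates 1, 2 or 6, or siRagC1 replicates 1 or 5 (0.0544 to 0.123).

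Among the ring subunits MCM6 (ENSG00000076003) fell with siRagC2. Its lowest, median and highest level was 62.2, 70.8 and 80.5 CPM with siRagC1 and 54.8, 71.3 and 81.6 CPM with siRagC2, against 72.6, 79.5 and 94.6 CPM with siCtrl. The lowest 2 of the siRagC2 libraries, replicates 1 and 2, lay well below every control, and replicates 5 and 6 lay within the controls. The change with siRagC2 was -0.27 ± 0.059 on the log2 scale (adjusted p = 0.0151), so that MCM6 fell by 17.1%. With siRagC1 it was -0.21 ± 0.058 (adjusted p = 0.0604). The siRagC2 call was lost without siRagC2 replicate 1 or siCtrl replicate 1 (adjusted p = 0.0542 and 0.0518). MCM6 passed with siRagC1 when siCtrl replicate 3 or 4, siRagC1 replicate 6 or siRagC2 replicate 5 was left out (0.0269 to 0.0494).

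MCM3 (ENSG00000112118), the most abundant ring transcript, had fold changes of similar size and missed the threshold. It stood at 157, 179 and 217 CPM with siRagC1 and 153, 189 and 227 CPM with siRagC2, against 201, 219.9 and 237 CPM with siCtrl. Replicates 5 and 6 of both siRNAs lay among the controls and replicates 1 to 4 below all of them. Its log2 fold changes were -0.25 ± 0.076 and -0.23 ± 0.077 (adjusted p = 0.0964 with siRagC1 and 0.107 with siRagC2), with a standard error above those of MCM6. It passed with siRagC1 when siRagC1 replicate 6 was left out (adjusted p = 0.0347).

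MCM4 (ENSG00000104738), a subunit of the catalytic core of the ring, stood at 121, 139.5 and 160.2 CPM with siRagC1 and 125, 136 and 161 CPM with siRagC2, against 145, 162 and 166 CPM with siCtrl. Its log2 fold changes were -0.17 ± 0.064 and -0.19 ± 0.064 (adjusted p = 0.177 and 0.109). MCM7 (ENSG00000166508), the other subunit that was abundant per length, had 146, 171 and 199 CPM with siRagC1, 159, 177 and 206 CPM with siRagC2 and 181, 191 and 209 CPM with siCtrl. Its changes were -0.15 ± 0.071 and -0.095 ± 0.071 (adjusted p = 0.272 and 0.532), the siRagC2 value being the smallest of the 10. MCM2 (ENSG00000073111) and MCM5 (ENSG00000100297), which flank the gate through which the ring opens, had controls that overlapped the silenced libraries widely. MCM2 had 62.8, 75.3 and 79.9 CPM with siRagC1, 64.1, 71.2 and 82.8 CPM with siRagC2 and 66.8, 80.9 and 86.0 CPM with siCtrl. It had changes of -0.11 ± 0.071 and -0.12 ± 0.072 (adjusted p = 0.459 and 0.418). MCM5 had 64.7, 76.3 and 79.6 CPM with siRagC1, 65.1, 70.0 and 83.0 CPM with siRagC2 and 70.0, 81.5 and 94.9 CPM with siCtrl. MCM5 had changes of -0.15 ± 0.077 and -0.18 ± 0.078 (adjusted p = 0.314 and 0.210). In both genes the lowest control was siCtrl replicate 6, a library that was the highest control for MCM3, MCM4, MCM6, MCM10, CDC6 and PCNA. The 95% intervals with siRagC1 reached -0.26 for MCM2 and -0.31 for MCM5, so decreases of the size seen in MCM6 lie inside them.

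MCM10 (ENSG00000065328), which binds the ring as it becomes active, had the largest fall with each siRNA. Its lowest, median and highest level was 31.6, 35.3 and 46.3 CPM with siRagC1 and 33.5, 34.8 and 43.1 CPM with siRagC2, against 41.3, 46.8 and 49.5 CPM with siCtrl. Only siRagC1 replicate 6 and siRagC2 replicate 5 reached the range of the controls. The log2 fold change was -0.33 ± 0.081 with siRagC1 (adjusted p = 0.0363) and -0.32 ± 0.081 with siRagC2 (adjusted p = 0.0303), so that MCM10 fell by 20.5% with siRagC1 and fell by 20.1% with siRagC2. Leaving out any 1 of siRagC1 replicates 1 to 5 or siCtrl replicates 1, 2, 5 and 6 ended the siRagC1 call (adjusted p 0.0521 to 0.102). Leaving out any 1 of siRagC2 replicates 1 to 4 or those 4 controls ended the siRagC2 call (0.0532 to 0.0951).

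PCNA (ENSG00000132646) fell with siRagC2. It stood at 119.7, 124 and 142 CPM with siRagC1 and 107, 126 and 141 CPM with siRagC2, against 137, 148 and 158 CPM with siCtrl. The controls of series D1103 were both at 156 CPM, and in D1221 3 of the 4 controls lay between 137 and 140.4 CPM, inside the reach of the silenced libraries. Against siCtrl, siRagC2 gave a log2 value of -0.24 ± 0.059 (adjusted p = 0.0290), so that PCNA fell by 15.2%. With siRagC1 the value was -0.22 ± 0.059 (adjusted p = 0.0583). The siRagC2 call was lost without any 1 of siCtrl replicates 1 and 2 or siRagC2 replicates 1, 2 and 4 (adjusted p 0.0643 to 0.101). PCNA passed with siRagC1 without siRagC2 replicate 1, siCtrl replicate 3 or siRagC1 replicate 6 (0.0198 to 0.0438).

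The number of genes that passed therefore rests on single libraries. With siRagC1 it was 0 without any 1 of siRagC1 replicates 1 to 5 or siCtrl replicates 1, 2 and 6. It was 1 without siCtrl replicate 5, 4 without siCtrl replicate 3 and 5 without siRagC1 replicate 6. With siRagC2 it was 0 without siRagC2 replicate 1 or siCtrl replicate 1, 1 without siRagC2 replicate 2 or 4 or siCtrl replicate 2, and 2 without siRagC2 replicate 3 or siCtrl replicate 6. Every one of the 10 fold changes stayed negative in all of these fits. When the replicate number was fitted as a block, 6 of the 10 were lower with siRagC2, MCM3 and MCM4 being added (adjusted p = 0.0231 and 0.0207). It also gave 6 with siRagC1, where the numbers were not taken to pair the libraries. The block raised the calls over all 15307 tested genes too, in either direction, from 495 to 986 with siRagC2 and from 312 to 864 with siRagC1. With no term for the code series 0 of the 10 passed in edgeR with either siRNA, and 0 did when a fold of at least 1.2 was required. Over all genes these settings passed 7 and 19, and 4 and 6, with siRagC1 and siRagC2. Without those changes 7 of the 10 had an unadjusted p under 0.05 with each siRNA, and DESeq2 called 5 and 4 and limma-voom 4 and 4. Over all genes DESeq2 called 772 and 995 and limma-voom 487 and 741 in either direction, against 312 and 495 in edgeR.

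Taking the mean of the siRNAs against siCtrl brings all 18 libraries to bear on 1 value per gene. MCM3, MCM6, MCM10, CDC6 and PCNA fell in this comparison, 5 of the 10, against 2.23% of all tested genes, and none was higher, against 2.72%. The log2 fold changes were -0.33 ± 0.069 for MCM10 (adjusted p = 0.0102), -0.31 ± 0.068 for CDC6 (0.0131), -0.24 ± 0.050 for MCM6 (0.00943), -0.24 ± 0.066 for MCM3 (0.0426) and -0.23 ± 0.051 for PCNA (0.0138). MCM4 came next with -0.18 ± 0.055 (adjusted p = 0.0663), and MCM2, MCM5, MCM7 and CDT1 had adjusted p between 0.154 and 0.411. MCM6 and MCM10 passed with each of the 18 libraries left out in turn. CDC6 and PCNA passed in 17 of the 18, and both were lost without siCtrl replicate 1 (adjusted p = 0.0505 and 0.0616). MCM3 passed in 7 of the 18. Without siCtrl replicate 1 the count was 2. Between libraries of the same number, MCM3, MCM4, MCM6 and MCM10 were lower in 6 of 6 pairs with each siRNA. CDC6 and PCNA were lower in 6 of 6 with siRagC1 and 5 of 6 with siRagC2, and MCM2, MCM5, MCM7 and CDT1 in 5 of 6 with each. Over all tested genes, 7.17% were lower in all 6 pairs with siRagC1 and 6.11% with siRagC2.

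The siRNAs were also compared directly. None of the 10 genes passed in siRagC1 against siRagC2 (edgeR; 0 at an unadjusted p under 0.05, and 0 with DESeq2 and limma-voom), and their differences ran from -0.058 for MCM7 to 0.058 for MCM6 on the log2 scale, 5 negative and 5 positive. Over all genes edgeR called 0 between the siRNAs (0% of those tested), with 1187 at an unadjusted p under 0.05, while DESeq2 called 25, none of them among the 10. The 95% interval of the difference was -0.063 to 0.18 for MCM6, -0.10 to 0.14 for PCNA and -0.26 to 0.21 for CDT1, the widest. For MCM2, MCM5, MCM7 and CDT1 the interval reached farther from 0 than the fold changes against siCtrl, and for the other 6 genes it stayed nearer to 0 than those.

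The values were then set out by code series. In D1103, both siRagC1 libraries lay below both controls for each of the 10 genes, and so did both siRagC2 libraries. For each siRNA taken separately, 23.7% of all tested genes showed this with siRagC1 and 24.8% with siRagC2. The share of all genes that showed it with both siRNAs was not counted. CDC6, for instance, had 61.3 and 54.9 CPM with siRagC1 and 58.0 and 59.1 CPM with siRagC2, against 80.2 and 81.7 CPM with siCtrl. PCNA there had 125 and 124 CPM with siRagC1 and 107 and 120.5 CPM with siRagC2, against 156 and 156 CPM with siCtrl. In D1221 the groups overlapped for all 10 genes, while 1.65% of all tested genes lay below the controls without overlap with siRagC1 and 3.52% with siRagC2. There CDC6 had 54.5, 54.3, 63.4 and 73.8 CPM with siRagC1 (replicates 3 to 6) and 60.5, 58.1, 73.0 and 61.8 CPM with siRagC2, against 69.8, 67.7, 69.2 and 84.6 CPM with siCtrl. MCM10 in D1221 had 33.4, 31.6, 36.7 and 46.3 CPM with siRagC1 and 35.3, 34.3, 43.1 and 40.3 CPM with siRagC2, against 41.8, 41.3, 48.7 and 49.5 CPM with siCtrl. Replicates 3 and 4 of each siRNA lay below the controls in both genes, and siRagC1 replicate 6 and siRagC2 replicate 5 reached the range of the controls.

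Fitted per series, the log2 fold changes in D1103 were -0.15 to -0.48 with siRagC1 and -0.29 to -0.48 with siRagC2, and in D1221 -0.056 to -0.29 with siRagC1 and 0.032 to -0.25 with siRagC2. MCM10 and CDC6 were the genes with the largest decreases in D1221, with -0.29 ± 0.10 and -0.24 ± 0.095 for siRagC1 and -0.25 ± 0.10 and -0.20 ± 0.096 for siRagC2. With siRagC2, MCM5 had the lowest unadjusted p for a difference between the series, at -0.48 ± 0.11 in D1103 and -0.026 ± 0.078 in D1221, and PCNA had -0.46 ± 0.088 and -0.13 ± 0.063. Tested directly, no gene's effect differed between the series at an adjusted p under 0.05 (edgeR interaction, 0 also with limma-voom; adjusted p = 1.00 for all 10 with siRagC1 and 0.735 to 0.780 with siRagC2). Unadjusted p was under 0.05 with siRagC2 for MCM3, MCM5 (0.00292), MCM6, MCM7, CDT1 and PCNA (0.00636), and for 0 of the 10 with siRagC1. Over all genes this held for 1019 with siRagC2 and 310 with siRagC1, and for 0 after adjustment. In the joint fit that gave these values, 0 of the 10 passed as lower in D1103 with siRagC1 (adjusted p 0.116 to 0.691, 8 at an unadjusted p under 0.05), against 0.0915% of all genes. With siRagC2 MCM5, MCM6 and PCNA passed there (adjusted p = 0.0345, 0.0254 and 0.0150), against 0.764%. In D1221 0 passed with either siRNA in edgeR, against 0.00653% of all genes with each, and 5 with siRagC1 and 3 with siRagC2 had an unadjusted p under 0.05. When D1103 was fitted by itself (n = 2 per group), 7 of the 10 were lower with siRagC1, against 1.3% of all genes tested there. With siRagC2 10 were, against 3.28%, and with the mean of the siRNAs 10, against 3.26%. With D1221 alone (n = 4 per group) edgeR called 0 lower with either siRNA, against 0.00666% and 0% of all genes, and 0 with the mean of the siRNAs, against 0.0133%. At an unadjusted p under 0.05 there were 5 with siRagC1, 2 with siRagC2 and 4 with the mean, and DESeq2 and limma-voom also called 0 in each. RRAGC itself had -2.04 ± 0.22 in D1103 and -1.12 ± 0.15 in D1221 with siRagC1, and -1.65 ± 0.21 and -0.95 ± 0.15 with siRagC2. Its part in the differences between series was not tested.

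**Figure D3:**
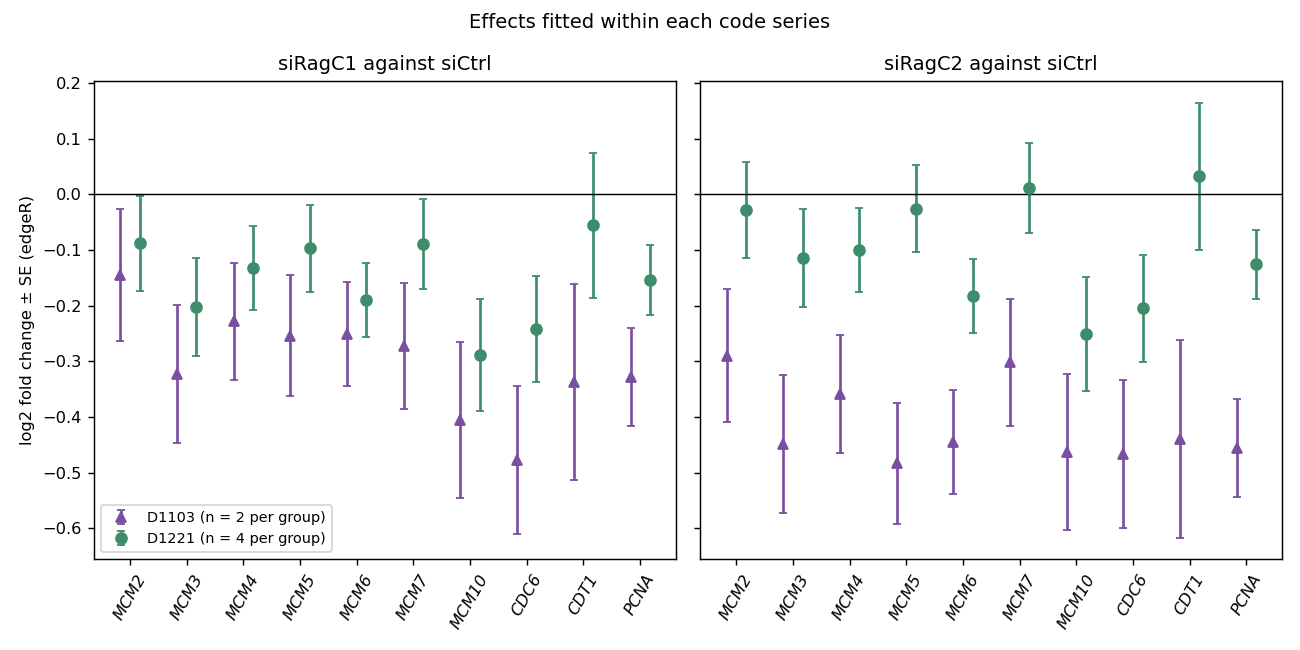
Log2 fold change ± SE (vertical axis, edgeR) of each licensing factor fitted within each code series, for siRagC1 (left) and siRagC2 (right) against siCtrl; triangles are D1103 (n = 2 per group) and circles D1221 (n = 4 per group). Every triangle lies below the circle of the same gene, and with siRagC2 the circles of MCM7 (0.011) and CDT1 (0.032) lie above 0.

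The 10 genes were then followed from library to library. Each level was set against the mean of the siCtrl libraries of its code series on the log2 scale, and the mean of the 10 genes was taken per library. It was -0.26 and -0.34 in the D1103 libraries of siRagC1 and -0.43 and -0.40 in those of siRagC2. In D1221, replicates 3 to 6 had -0.24, -0.35, -0.072 and 0.022 with siRagC1 and -0.16, -0.26, 0.052 and -0.023 with siRagC2. The same numbers of siCtrl had -0.045, -0.062, 0.089 and 0.019, so replicates 3 and 4 lay below 5 and 6 there as well. Against the siCtrl library of the same number, every silenced D1221 library but siRagC1 replicate 6 was lower. Replicate 6 of siRagC1 and replicates 5 and 6 of siRagC2 lay in the controls' range, and replicate 5 of siRagC1 just below it. RRAGC was lower in those 4 libraries too, at 23.3 and 31.9 CPM with siRagC1 and 32.6 and 21.8 CPM with siRagC2, against 60.6 and 61.1 CPM with siCtrl replicates 5 and 6. CDT1 strayed farthest from the mean of the 10 over the 18 libraries (root mean square difference 0.15 on the log2 scale) and MCM4 least (0.043), while the median over all tested genes was 0.27; the mean holds the genes' own values, so this is a description.

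**Figure D4:**
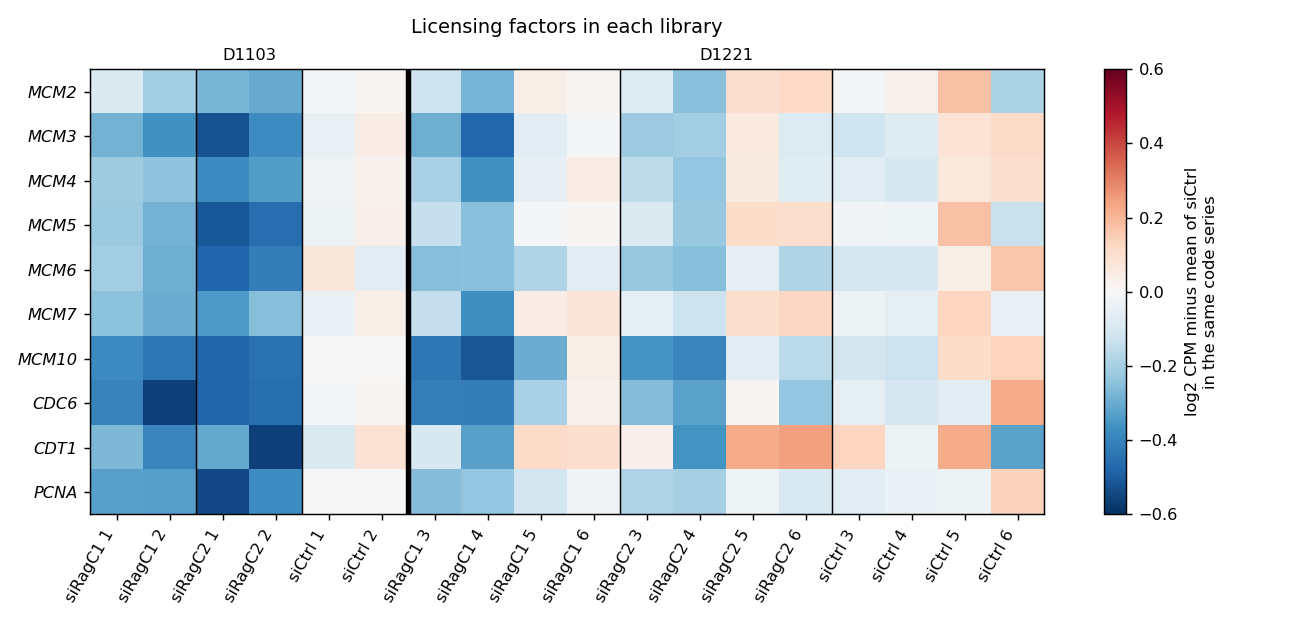
Log2 CPM of each licensing factor (rows) in each library (columns) minus the mean of the siCtrl libraries of the same code series, on a colour scale from blue (lower) to red (higher); D1103 is left and D1221 right of the thick line. All 4 silenced D1103 libraries are blue for the 10 genes, and in D1221 replicates 3 and 4 are mostly blue and replicates 5 and 6 mixed.

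The genes outside the 10 whose profile over the 18 libraries lay nearest to their mean were FEN1, PSMC3IP, DNMT1, ZWINT and RFC5. They were picked by this likeness in the same libraries, so fold changes close to those of the 10 follow from the choice. Their values and calls are a description and not separate evidence. FEN1, the nuclease that trims Okazaki flaps (root mean square difference 0.046), had log2 fold changes of -0.24 with siRagC1 and -0.19 with siRagC2 (adjusted p = 0.0874 and 0.148). PSMC3IP, a recombination cofactor (0.053), fell by 0.26 with siRagC1 (adjusted p = 0.0487) and had -0.17 with siRagC2 (0.162). That siRagC1 call was lost without any 1 of siRagC1 replicates 1 to 5, siRagC2 replicates 1 to 4 or 6, or siCtrl replicates 1, 2, 4 or 5 (adjusted p 0.0507 to 0.140). DNMT1, the maintenance DNA methyltransferase, ZWINT, a kinetochore protein, and RFC5, a subunit of the loader that places PCNA on DNA, had root mean square differences of 0.064, 0.067 and 0.068 and missed the threshold with both siRNAs (adjusted p 0.102 to 0.321). With the replicate number as a block, FEN1 and RFC5 passed as lower with siRagC2 (adjusted p = 0.0489 and 0.0226), and the other 3 of the 5 did not (0.0608 to 0.124). With siRagC1, where the numbers were not taken to pair the libraries, all 5 passed as lower with the block (edgeR, adjusted p 0.0137 to 0.0473).

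Around the 10, 9 lists of replication and cell cycle genes, also chosen with earlier results known, held 141 genes, of which 140 were matched and tested. The nearest are the partners in loading (origin recognition subunits and relatives of the ring), of which 0 of 11 passed with either siRNA, with medians of -0.082 with siRagC1 and -0.077 with siRagC2. Their most abundant genes were MCMBP, which takes rings apart (144 ± 10.6 CPM with siRagC1, 143 ± 3.86 with siRagC2 and 153 ± 8.99 with siCtrl; mean ± SD, n = 6), and MCM8, a relative of the ring subunits that works in repair (111 ± 18.8, 115 ± 13.8 and 125 ± 17.6). Of the inhibitors and degradation machinery that stop relicensing 0 of 12 passed (medians -0.11 and -0.056). Its most abundant genes were DDB1, an adaptor of the ligase that destroys CDT1, at 397 ± 25.1, 408 ± 11.3 and 409 ± 15.7 CPM, and CDC20, an activator of the anaphase-promoting complex, at 243 ± 44.4, 253 ± 43.9 and 263 ± 19.4 CPM. Of 17 factors that activate the loaded helicase 0 passed, although 16 were negative with siRagC1 and 17 with siRagC2 (medians -0.14 and -0.10). The helicase list was led in level by TIMELESS, a fork protection factor, with 85.9 ± 8.87, 89.4 ± 6.47 and 98.5 ± 6.09 CPM, and by RECQL4, a helicase, with 75.3 ± 14.3, 84.0 ± 8.33 and 87.4 ± 16.1 CPM.

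Among 27 polymerase, clamp loader and lagging strand genes 0 passed with siRagC1 and 2 were lower with siRagC2 (medians -0.13 and -0.12). PRIM1, the catalytic subunit of primase, had 21.5 ± 2.63 CPM with siRagC1, 20.9 ± 2.49 with siRagC2 and 25.6 ± 3.58 with siCtrl. On the log2 scale it changed by -0.30 ± 0.081 with siRagC2 (adjusted p = 0.0456) and had -0.25 ± 0.080 with siRagC1 (0.108). POLE2, a subunit of the leading-strand polymerase, had 26.6 ± 3.10, 25.4 ± 3.61 and 29.9 ± 3.25 CPM and changed by -0.25 ± 0.060 with siRagC2 (0.0231), against -0.17 ± 0.059 with siRagC1 (0.120). Of the partners of PCNA in chromatin assembly and repair 0 of 14 were lower and 1 was higher with each siRNA (medians -0.12 and -0.12). This was WDR48, which activates the enzyme that removes ubiquitin from PCNA, at 59.9 ± 2.74 CPM with siRagC1, 60.8 ± 3.94 with siRagC2 and 52.3 ± 3.17 with siCtrl. It rose by 0.20 ± 0.050 with siRagC1 (adjusted p = 0.0408) and 0.22 ± 0.050 with siRagC2 (0.0179). When 1 library was left out, the siRagC2 call held in 6 of 18 fits for PRIM1 (lost without siRagC2 replicates 1 to 4, siRagC1 replicates 1, 2 or 5, or any siCtrl replicate but 3; adjusted p up to 0.118). For POLE2 it held in 13 (lost without siRagC2 replicates 1 to 3 or siCtrl replicates 1 or 2; up to 0.0759). The WDR48 call held in 9 of 18 fits with siRagC1 (lost without siRagC1 replicates 1 to 5 or siCtrl replicates 1, 2, 4 or 5; up to 0.122). With siRagC2 it held in 14 (lost without siRagC2 replicates 1 or 4 or siCtrl replicates 1 or 2; up to 0.0631).

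Nucleotide supply held 0 of 9 passing genes (medians -0.14 and -0.076), its most abundant being the ribonucleotide reductase subunits RRM1 (217 ± 29.2 CPM with siRagC1, 223 ± 33.8 with siRagC2 and 242 ± 34.8 with siCtrl) and RRM2 (141 ± 31.7, 150.2 ± 27.0 and 167 ± 25.3). Of the E2F and pocket protein genes 0 of 13 passed (medians -0.10 and -0.099). The highest in level were E2F7, a repressor of the family, at 238 ± 6.07, 229 ± 9.71 and 232 ± 12.02 CPM, and TFDP1, the dimer partner, at 159.7 ± 11.2, 162 ± 14.7 and 174 ± 4.92 CPM. Of 12 G1 to S kinase genes 0 passed with siRagC1, and 1 was lower and 1 higher with siRagC2 (medians -0.078 and -0.023). CCNE2, cyclin E2, had 21.6 ± 2.50, 20.9 ± 2.89 and 26.7 ± 3.39 CPM and fell with siRagC2 (-0.37 ± 0.089, adjusted p = 0.0253), and with siRagC1 it had -0.30 ± 0.087 (0.0744). The siRagC2 call was lost without siRagC2 replicates 1 to 4 or siCtrl replicates 1 or 2 (up to 0.0837). CDKN1B, which encodes the kinase inhibitor p27, had 62.3 ± 3.61, 71.8 ± 8.72 and 58.0 ± 2.82 CPM and rose with siRagC2 (0.30 ± 0.048, adjusted p = 0.00185), also in all 18 fits without 1 library. With siRagC1 it had 0.10 ± 0.047 (0.271). Of 25 G2 and mitosis genes 0 passed and the medians were -0.074 and -0.019. TOP2A, the mitotic topoisomerase, stood at 546 ± 105 CPM with siRagC1, 559 ± 93.3 with siRagC2 and 562 ± 129.8 with siCtrl, and MKI67, the gene of the Ki-67 proliferation marker, at 449.8 ± 107, 411 ± 83.7 and 451 ± 98.4 CPM. Several of these lists had no called gene in edgeR, and list genes at an unadjusted p under 0.05 were also counted, a level reached in either direction by 17.1% of all tested genes with siRagC1 and 18.5% with siRagC2. The share of all genes that were lower at this level was not counted. The numbers lower were 4 with siRagC1 and 4 with siRagC2 for the partners in loading, 5 and 4 for the inhibitors, 4 and 4 for helicase activation, 5 and 2 for nucleotide supply, 4 and 2 for the E2F and pocket proteins, 1 and 0 for G2 and mitosis, 6 and 4 for the PCNA partners, 10 and 9 for the polymerases, and 3 and 3 for the kinases. At that level 2 kinase genes were higher with each siRNA, 1 PCNA partner with each and 1 E2F or pocket gene with siRagC2, and in the other lists 0. After adjustment DESeq2 called 1 inhibitor, 1 helicase activation gene, 3 polymerase genes and 2 kinase genes lower with siRagC1, and 1 nucleotide supply gene lower and 1 E2F or pocket gene higher with siRagC2. With limma-voom these were 1 polymerase gene and 1 kinase gene lower with siRagC1 and 1 E2F or pocket gene higher with siRagC2, and the other lists without a call in edgeR had none in either tool.

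With the mean of the siRNAs against siCtrl, 10 genes of these lists passed, 8 lower and 2 higher, against 2.23% and 2.72% of all tested genes. The polymerase list had 4 lower, namely PRIM1, POLE2, FEN1 and RPA2, a subunit of the protein that coats single-stranded DNA. The kinase list had CCNE2 and CDC25A, the phosphatase that activates the S phase kinases, lower and CDKN1B higher. Among the PCNA partners RAD18, the ligase that puts ubiquitin on PCNA, was lower and WDR48 higher, and SAMHD1, which breaks down nucleotides, was lower in nucleotide supply. RPA2, RAD18, SAMHD1 and CDC25A are named here after their values were seen. WDR48 (0.21 ± 0.044, adjusted p = 0.00932), CCNE2 (-0.33 ± 0.075, 0.0149) and CDKN1B (0.20 ± 0.042, 0.00847) passed in all 18 fits without 1 library. PRIM1 (-0.27 ± 0.069, adjusted p = 0.0269) was lost without siCtrl replicate 1, 2 or 6 and POLE2 (-0.21 ± 0.051, 0.0208) without siCtrl replicate 1 or 2, with adjusted p up to 0.0838 and 0.0727. CDC25A (-0.29 ± 0.077, adjusted p = 0.0336) was lost without siCtrl replicates 1, 2, 5 or 6, siRagC1 replicates 1 to 3 or siRagC2 replicates 1, 2 or 4 (up to 0.106). FEN1 (-0.22 ± 0.063, adjusted p = 0.0493) was lost without siRagC1 or siRagC2 replicates 1 to 4 or siCtrl replicates 1, 2, 5 or 6 (up to 0.152). SAMHD1 (-0.14 ± 0.038, adjusted p = 0.0406) was kept only without siCtrl replicates 3 or 4, siRagC1 replicate 6 or siRagC2 replicates 3 or 5 (otherwise up to 0.151). RPA2 (-0.12 ± 0.036, adjusted p = 0.0492) was kept only without siCtrl replicate 3, siRagC1 replicate 6 or siRagC2 replicate 5 (otherwise up to 0.113). RAD18 (-0.20 ± 0.057, adjusted p = 0.0491) was kept only without siCtrl replicates 3 or 4 or siRagC1 replicate 6 (otherwise up to 0.132).

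With the replicate number as a block, more genes of the lists passed as lower with siRagC2. They were 5 polymerase genes, 3 in helicase activation, 2 kinase genes, and 1 each among the partners in loading, the inhibitors and nucleotide supply, and 1 PCNA partner, 1 E2F or pocket gene and 1 kinase gene were higher. With the mean of the siRNAs the block gave, as lower, 9 of 27 polymerase genes, 6 of 14 PCNA partners, 5 of 17 helicase activation genes and 4 of 12 inhibitors. It also gave 3 of 11 partners in loading, 3 of 9 in nucleotide supply, 2 of 13 E2F or pocket genes, 2 of 12 kinase genes and 1 of 25 G2 and mitosis genes lower. With the mean, 1 PCNA partner and 1 kinase gene were higher. Calls over all 15307 tested genes, in either direction, rose with the block from 495 to 986 with siRagC2 and from 758 to 1352 with the mean. The median of the 10 licensing factors, -0.19 with siRagC1 and -0.21 with siRagC2, was farther below 0 than that of each of these 9 lists, which is a description of the medians and was not tested.

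**Figure D5:**
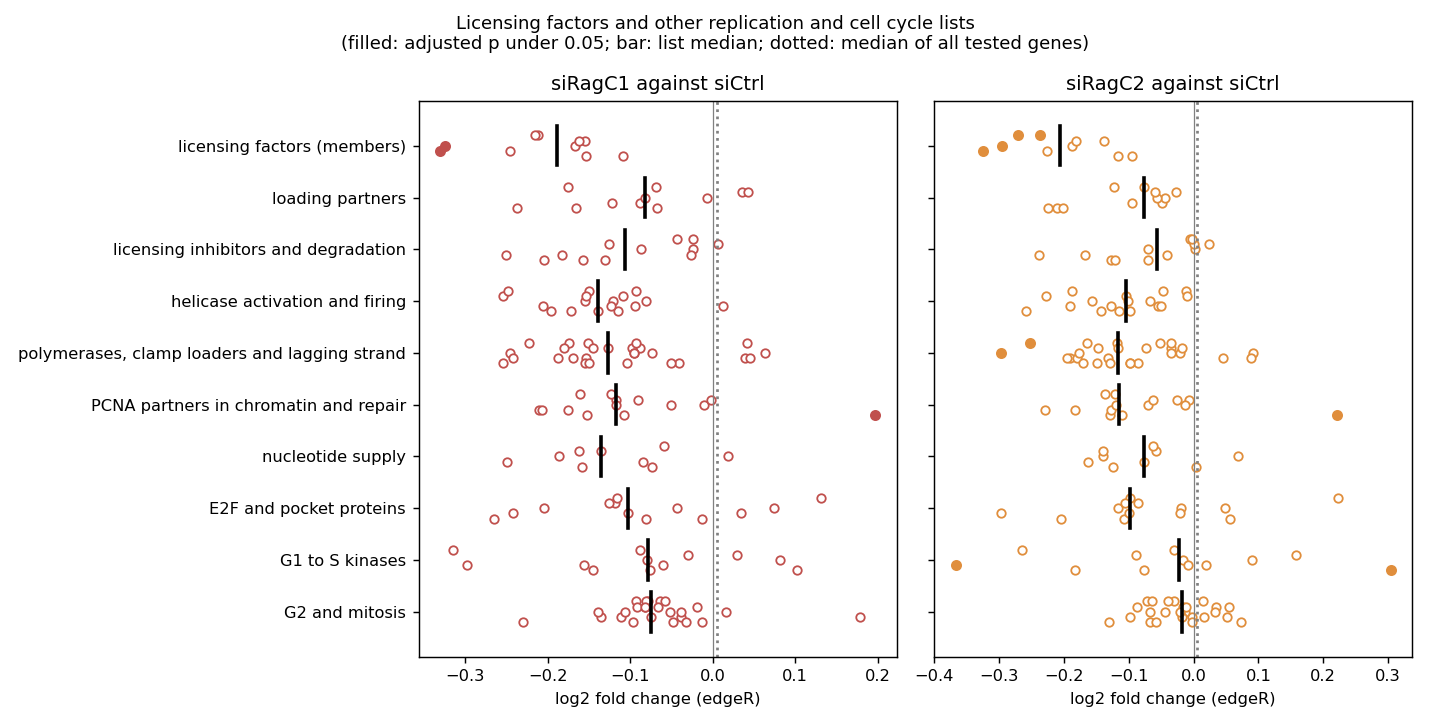
Log2 fold change (horizontal axis, edgeR) of every tested gene of the licensing factors and of the 9 other lists, for siRagC1 (left) and siRagC2 (right) against siCtrl; each point is a gene, filled at an adjusted p under 0.05, black bars are list medians and the dotted line is the median of all tested genes. The licensing factors have medians of -0.19 and -0.21, and the 25 G2 and mitosis genes -0.074 and -0.019.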

How the data were processed

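RNA-seq of 18 libraries was deposited as 1 table of whole-number read counts per gene, not normalized, which the authors made on build GRCh37/hg19 with tools that, per the submitters' processing notes, were STAR 2.7.6a and cutadapt 0.6.2. How reads were counted, the use of strand and the annotation are left unstated there. The table lists 57820 genes, 51996 with a symbol. Groups and replicate numbers come from the labels. No replicates looked like the same library: for same-group pairs the variance of the counts was 2.88 to 81.6 times what counting alone gives.

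The members and gene lists were chosen with earlier results of these data known. Genes were kept by edgeR's filterByExpr (15307 genes) and tested with edgeR 4.0.16 in R 4.3.3 (quasi-likelihood F test, robust, TMM factors), fitting all 3 groups with the code series as a term and adjusting p by Benjamini-Hochberg over all tested genes. Levels are CPM with TMM-scaled library sizes. Alternatives used DESeq2 1.42.0, limma 3.58.1 (voom), other scalings, filters, thresholds, samples and each library left out. The edgeR fit was also run on simulated data. The recovery required there was set at a fold change larger than those of the members, so it does not cover changes of their size. The text names all 10 members, RRAGC, up to 4 genes past the threshold in each list or, where none passed, its 2 most abundant, and the 5 nearest profiles.

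Whether replicate numbers pair libraries was checked from the correlation of their deviations from group means. It exceeded 0.1 in all 6 pairs of siRagC2 with siCtrl (0.116 to 0.492) and in 5 of 6 of siRagC1 with siCtrl (0.0765 to 0.610). By this rule siRagC2 was taken as paired. With the series mean removed the correlation ran from -0.144 to 0.177 with siRagC2 and from -0.064 to 0.260 with siRagC1. The rule therefore cannot tell pairing from the code series. The main fit, which gave the calls with both siRNAs, held the code series as a term and not the replicate number.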

Additional observations from a re-analysis of the deposited data

Results flagged for a closer look

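In each group of 6 libraries, the highest and lowest library was compared with its nearest neighbour for the 10 genes, 30 groups in all, and 2 stood apart. Chance flags about 1 in 20 groups. For CDC6, siRagC2 replicate 5 was highest with 73.0 CPM, against 61.8 CPM for the next library and 58.0 CPM for the lowest; its gap to the next was 0.747 of the whole range, above Dixon's critical value of 0.625. For MCM10, siRagC1 replicate 6 was highest with 46.3 CPM, against 36.7 CPM for the next and 31.6 CPM for the lowest, a gap of 0.654 of the range. Both libraries belong to series D1221.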

How the results depend on the processing

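The members called lower numbered 2 with siRagC1, 4 with siRagC2 and 5 with the mean of both siRNAs, and RLE factors, upper-quartile factors and a filter of 5 CPM in 6 libraries gave the same counts. With no filter they were 5 with siRagC1 and 7 with siRagC2, with DESeq2 5 and with limma-voom 4 with siRagC1. With the replicate number as a block they were 6 with siRagC1, where the numbers were not taken to pair the libraries. That block with siRagC1 gave 8 polymerase genes, 4 helicase activation genes, 4 in nucleotide supply, 3 inhibitors and 2 each of the partners in loading, PCNA partners, kinase and G2 and mitosis genes lower, and 1 PCNA partner higher. Over all genes it passed 864 with siRagC1, against 312 in the main fit. PRIM1, POLE2 and CCNE2 were among them as lower (edgeR, adjusted p = 0.00634, 0.0421 and 0.0114), and CDKN1B was not (0.236). With no code series term, with D1221 alone and with a minimum fold of 1.2 the members called lower were 0 in all 3 comparisons. With the compared groups alone they were 0 with siRagC1, and at an adjusted p under 0.01 they were 0, 0 and 1 (both siRNAs). With D1103 alone they were 7 with siRagC1, 10 with siRagC2 and 10 with both. With a library or replicate number left out they ran from 0 to 5, from 0 to 5 and from 0 to 7, and between the siRNAs from 0 to 0.

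Genes past the threshold numbered 312 with siRagC1, 495 with siRagC2, 758 with both and 0 between the siRNAs. The first 2 were 799 and 843 with no filter (219 between the siRNAs). With DESeq2 the counts were 772, 995, 1280 and 25, with limma-voom 487 with siRagC1, and with the replicate block 864, 986 and 1352. They were 7, 19 and 44 with no series term, 126 with siRagC1 for the compared groups alone, 554, 1149, 1140 and 231 with D1103 alone, 1, 1 and 8 with D1221 alone, 54, 98 and 174 at 0.01, and 4, 6 and 4 with the minimum fold. With a library or replicate number left out they ran from 34 to 1178, from 42 to 1028, from 111 to 1292 and, between the siRNAs, from 0 to 519. The cause was not tested.

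Of the values of single members under the alternatives, all 370 were negative with siRagC1, 368 of 370 with siRagC2 and all 360 with both. The exceptions were MCM7 (0.011) and CDT1 (0.033) with siRagC2 in D1221 alone. The calls of WDR48, and those of PRIM1, POLE2, CCNE2 and CDKN1B with siRagC2, were lost with no series term, D1221 alone and the minimum fold, and that of PSMC3IP also with upper-quartile factors (adjusted p = 0.0510). RRAGC missed the threshold with siRagC2 in D1221 alone (adjusted p = 0.0553).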
